A study of Homo sapiens with 36 samples.

Results

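The BAG proteins and the small heat shock proteins are co-chaperones and chaperones that work beside HSP70, and 9 of their genes were followed here in HEK293 cells: BAG1, BAG2, BAG3, BAG4, BAG5, BAG6, HSPB1, HSPB8 and CRYAB. They were taken by gene symbol, and all 9 were found among the 36601 genes of the count table. HEK293 is a widely used human cell line of embryonic kidney origin, and the study tags its own proteins with HaloTag, a protein tag that binds its ligands covalently. HyT36 is a hydrophobic HaloTag ligand meant to make a tagged protein misfold. The 4 groups were clone 5 given 25 µM HyT36, clone 5 given DMSO (the vehicle), clone 4 given 25 µM HyT36 and clone 4 given DMSO, and each had 3 bulk RNA libraries. Every group comes from cells that received a guide library and a HaloTag donor, each line is 1 clone, and no untagged cells were among these 12 libraries. The tagged protein of each clone is not named in the sources used here, so the labels could not be checked on a targeted gene. Nor do they say whether the bulk cultures were exposed for 2 h or for 12 h, the times of the protocols. The other 24 samples of the series, single-cell and guide libraries, were not analysed here.

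A BAG domain binds the ATPase domain of HSP70, and most BAG proteins use it to speed the release of ADP and of the bound client. Several members are also tied to another route. BAG1 is tied to the proteasome, BAG3 to autophagy and BAG2 to restraint of the ubiquitin ligase CHIP. BAG6 is tied to the handling of hydrophobic segments in the cytosol. Small heat shock proteins need no ATP and hold unfolding proteins in large, changing oligomers. HSPB8 is the small heat shock protein that pairs with BAG3, and HSPB1 and BAG3 are textbook targets of HSF1, the transcription factor of the cytosolic heat shock response.

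HSF1 binds heat shock elements, repeats of the letters GAA and their complement TTC, so the 250 bases before the RefSeq start of each gene (GRCh38.p14) were searched on both strands for GAANNTTC and TTCNNGAA and for their longer forms, GAANNTTC followed by NNGAA and TTCNNGAA followed by NNTTC. A sequence was matched for 7 of the 9 members. BAG5 and BAG6 had 2 windows each, of which 1 is reported here. Of 35116 such windows in RefSeq, 5.78% held GAANNTTC, 6.62% held TTCNNGAA, 11.6% held either of them and 0.441% held either longer form, which contains the shorter ones. The windows of BAG2, HSPB1 and HSPB8 each held 1 GAANNTTC, those of BAG1, BAG3, BAG5 and BAG6 held neither 8-letter motif, and the longer forms were found in none of the 7. A match is a description of letters, and no match covers this window only. The windows given here are those of BAG3 and BAG5, the members that passed a test of the ligand, and of HSPB1 and BAG2, which hold a motif and differed between the clones. They are written 5′ to 3′ on the strand of the gene, with the letters of the motif in capitals. BAG3 lies at chr10:119651130-119651379 on the plus strand, BAG5 at chr14:103562658-103562907 on the minus strand, HSPB1 at chr7:76302423-76302672 on the plus strand and BAG2 at chr6:57172076-57172325 on the plus strand.
BAG3: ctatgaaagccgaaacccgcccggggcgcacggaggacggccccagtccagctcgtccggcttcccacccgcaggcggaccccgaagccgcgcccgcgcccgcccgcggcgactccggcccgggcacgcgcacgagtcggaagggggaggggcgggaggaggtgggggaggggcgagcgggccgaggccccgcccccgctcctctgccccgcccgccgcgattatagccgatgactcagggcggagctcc
BAG5: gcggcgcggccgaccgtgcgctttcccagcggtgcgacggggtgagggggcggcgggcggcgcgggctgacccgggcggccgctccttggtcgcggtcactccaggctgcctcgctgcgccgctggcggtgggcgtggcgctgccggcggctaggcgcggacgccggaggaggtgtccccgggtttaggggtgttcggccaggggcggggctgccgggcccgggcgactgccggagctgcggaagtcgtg
HSPB1: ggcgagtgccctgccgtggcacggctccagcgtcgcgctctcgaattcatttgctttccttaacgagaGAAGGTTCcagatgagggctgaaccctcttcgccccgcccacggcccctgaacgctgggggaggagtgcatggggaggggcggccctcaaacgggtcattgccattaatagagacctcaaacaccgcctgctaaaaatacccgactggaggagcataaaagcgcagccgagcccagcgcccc
BAG2: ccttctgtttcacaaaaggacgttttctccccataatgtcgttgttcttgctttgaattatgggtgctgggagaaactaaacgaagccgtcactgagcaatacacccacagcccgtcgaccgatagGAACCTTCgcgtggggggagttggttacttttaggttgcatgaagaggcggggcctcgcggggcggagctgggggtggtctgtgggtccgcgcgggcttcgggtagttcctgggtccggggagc

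In RefSeq on GRCh38.p14, BAG1 lies at chr9:33252471-33264708, BAG2 at chr6:57172326-57189833, BAG3 at chr10:119651380-119677819, BAG4 on chromosome 8, BAG5 at chr14:103556551-103562657 and BAG6 at chr6:31639028-31652661. HSPB1 lies at chr7:76302673-76304292, HSPB8 at chr12:119178931-119194746 and CRYAB at chr11:111908564-111923740. Gene counts per library ranged from 22853946 to 28635511. Levels are in CPM, reads scaled to the library size, after TMM scaling, and differences are log2 fold changes with their SE from edgeR's quasi-likelihood test, with Benjamini-Hochberg adjustment over 14892 genes and a threshold of 0.05. Of the HEK293 markers, VIM, LIN28B, PAX2 and INA were detected, with the list of 6 summing to 299.6 to 322.2 CPM in clone 5 with HyT36, 304.7 to 318.8 in clone 5 with DMSO, 383.2 to 402.6 in clone 4 with HyT36 and 379.4 to 404.4 in clone 4 with DMSO. NEFL and NEFM, also HEK293 markers, had 0 to 3 reads in each library. A list of 16 epithelial marker genes, taken by its sum, set libraries apart across the labels. It summed to 19.2 to 22.4 CPM in clone 5 with HyT36, 74.2 to 96.4 CPM in clone 5 with DMSO, 12.9 to 81.5 CPM in clone 4 with HyT36 and 12.2 to 123.5 CPM in clone 4 with DMSO. In each group 1 of the 16 genes was at 0. Not every gene followed the sum. In clone 5 KRT19 averaged 0.128 CPM with HyT36 and 41.4 CPM with DMSO. CDH1 averaged 0.540 and 0.531 CPM there, and GRHL1 14.05 and 13.36 CPM. These genes were named after their values were seen. In clone 5 few epithelial transcripts coincided with HyT36, so the ligand and these transcripts cannot be told apart there, while in clone 4 replicate 1 with HyT36 and replicates 2 and 3 with DMSO had few. In bulk libraries fewer cells expressing a gene and less RNA per cell cannot be told apart.

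With HyT36 the family as a whole moved little in either clone. In clone 5 BAG5 passed the test as lower and no member as higher, and in clone 4 BAG3 passed as higher and no member as lower. HSPB8, with few reads, had fitted changes of 0.51 ± 0.52 in clone 5 and -1.25 ± 0.51 in clone 4 that did not pass. Of the 9 members 8 passed the filter on low counts, and 1 of these 8 passed the test in each clone, against 8.19% of all genes tested in clone 5 (1219 genes, 3.35% higher and 4.83% lower) and 5.57% in clone 4 (830 genes, 2.21% higher and 3.36% lower). The split over all genes was 499 higher and 720 lower in clone 5 and 329 higher and 501 lower in clone 4 with edgeR, and 621 higher and 575 lower and 415 higher and 420 lower with DESeq2. The median log2 change of the 8 members was -0.03 in clone 5 and 0.06 in clone 4, beside -0.0045 and 0.0027 over all genes tested. The median absolute change was 0.0911 over the members and 0.0951 over all genes tested in clone 5, and 0.0741 and 0.0915 in clone 4. A share of 1 in 8 is near these backgrounds, so the counts show nothing particular to the members.

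**Figure D1:**
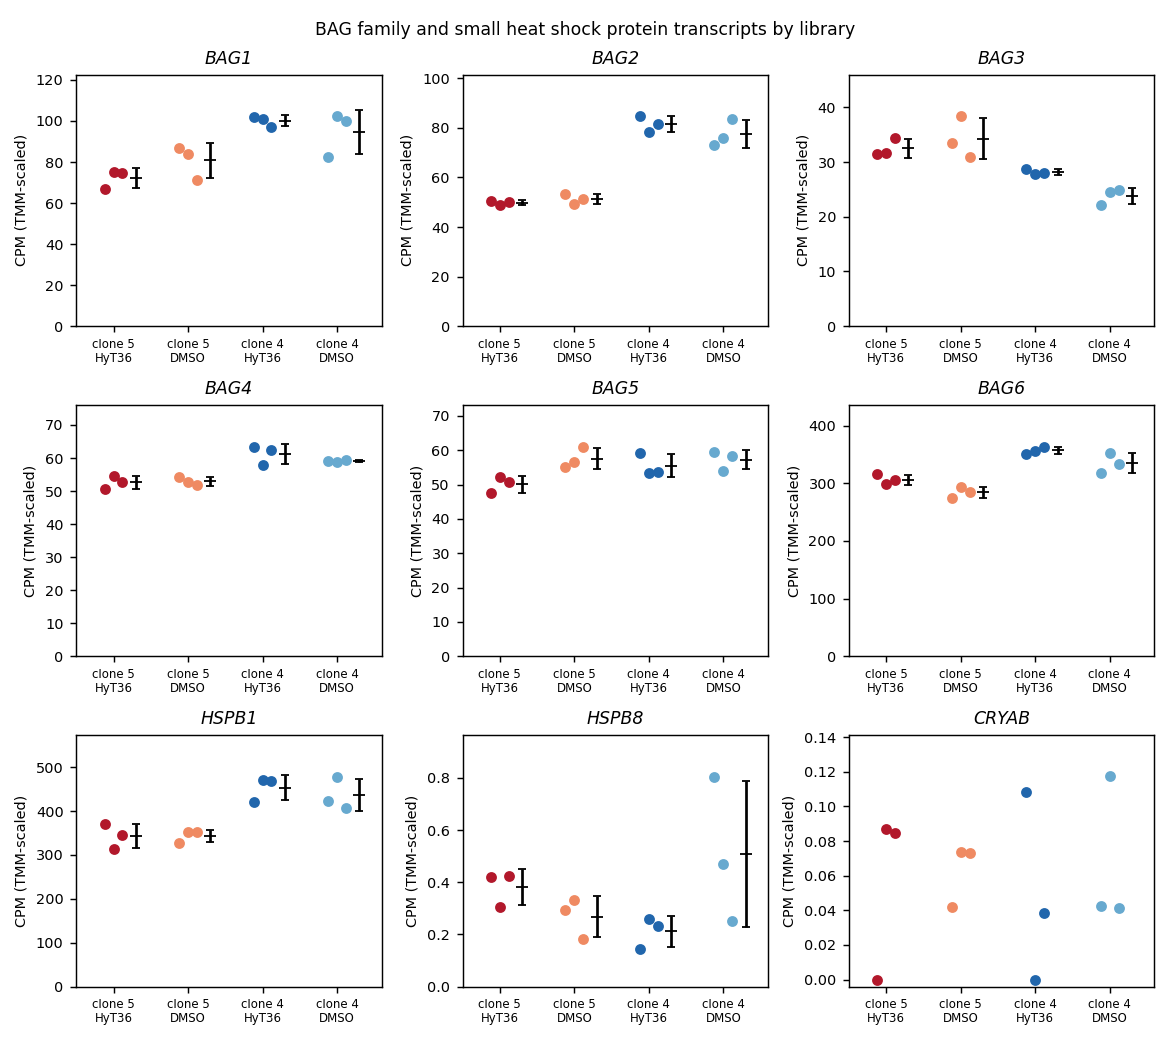
Level of each of the 9 members in every library, in TMM-scaled CPM on a linear axis, with clone 5 in red tones and clone 4 in blue tones and HyT36 to the left of DMSO. Points are libraries and bars are the mean ± SD of 3, left out for CRYAB, which had 0 to 3 reads in a library. BAG2 lies between 48.9 and 53.4 CPM in all clone 5 libraries and between 72.9 and 84.6 CPM in all clone 4 libraries.

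BAG3, the member that carries HSP70 clients to autophagy, is itself known to be induced by proteotoxic stress. In clone 4 it had 28.8, 27.9 and 28.0 CPM with HyT36, against 22.2, 24.5 and 24.9 CPM with DMSO. All 3 libraries with HyT36 lay above all 3 with DMSO, as 11.7% of genes tested did. BAG3 rose in clone 4 by 0.24 ± 0.07 on the log2 scale, or 1.18-fold (edgeR adjusted p = 0.035). In clone 5 BAG3 had 31.4, 31.7 and 34.5 CPM with HyT36, against 33.5, 38.3 and 30.9 CPM with DMSO, and these libraries overlapped. Its change there was -0.08 ± 0.07 and did not pass (edgeR adjusted p = 0.61). The response of clone 5 minus that of clone 4 was -0.32 ± 0.10 on the log2 scale, with an unadjusted p of 0.0027 by edgeR and an adjusted p of 0.24. The call in clone 4 was lost without replicate 1 with DMSO (edgeR adjusted p = 0.13) and without replicate 1, 2 or 3 with HyT36 (0.12, 0.073 and 0.091). Among the clone 4 libraries with few epithelial transcripts, 1 with HyT36 and 2 with DMSO, the change was 0.22 (adjusted p = 0.36), and among those with many, 2 and 1, it was 0.33 (adjusted p = 0.034).

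BAG5, a protein with several BAG domains that acts as an exchange factor for HSP70, was the member that passed in clone 5. It had 47.4, 52.3 and 50.6 CPM with HyT36, against 55.1, 56.6 and 61.1 CPM with DMSO. All 3 libraries with HyT36 lay below all 3 with DMSO, as 13.8% of genes tested did. BAG5 fell by 0.20 ± 0.05 on the log2 scale, 1.15-fold lower with HyT36 than with DMSO (edgeR adjusted p = 0.015). In clone 4 BAG5 had 59.3, 53.5 and 53.6 CPM with HyT36, against 59.4, 54.1 and 58.4 CPM with DMSO, and the libraries overlapped (-0.05 ± 0.05, edgeR adjusted p = 0.71). The difference between the responses was -0.15 ± 0.08 (edgeR unadjusted p = 0.053, adjusted p = 0.63). The fall in clone 5 was no longer past the threshold without replicate 3 with DMSO (edgeR adjusted p = 0.15) or without replicate 1 with HyT36 (0.13). With a term for many or few epithelial transcripts it was -0.24 (edgeR adjusted p = 0.066). That term is estimated from the clone 4 libraries alone, so it cannot separate these transcripts from the ligand in clone 5. COA8 starts within 500 bases of BAG5, and its own change in clone 5 was -0.17 ± 0.07 (edgeR adjusted p = 0.17).

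BAG6 is the large scaffold that receives newly made hydrophobic proteins in the cytosol and passes them to membrane insertion or to degradation. In clone 5 it had 315.4, 298.0 and 305.6 CPM with HyT36, against 275.3, 293.7 and 284.4 CPM with DMSO. The 3 libraries with HyT36 lay above the 3 with DMSO, as 11.4% of genes tested did, yet the change of 0.11 ± 0.04 did not pass (edgeR adjusted p = 0.082). In clone 4 BAG6 had 351.3, 356.2 and 363.5 CPM with HyT36, against 318.6, 353.1 and 333.1 CPM with DMSO, and replicate 2 with DMSO lay within the libraries with HyT36. The change there was 0.09 ± 0.04 (edgeR adjusted p = 0.17). The responses of the clones differed by 0.02 (edgeR adjusted p = 0.98). The change in clone 5 passed in 5 of 20 alternatives, namely with DESeq2 (adjusted p = 0.028), with only the groups compared (0.046), with no low-count filter (0.045) and without replicate 1 or 2 of clone 4 with DMSO (0.037 and 0.040), which enter the shared spread. With the epithelial term, estimated from clone 4 libraries alone, it was 0.07 (adjusted p = 0.56). The change in clone 4 passed without its replicate 2 with DMSO (0.14, adjusted p = 0.043) and among libraries with many epithelial transcripts (0.18, adjusted p = 0.011), while among those with few it was 0.03 (adjusted p = 0.92).

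BAG1, BAG2 and BAG4 did not pass in either clone. BAG1, which has a ubiquitin-like domain that docks on the proteasome, had 66.8, 75.1 and 74.7 CPM with HyT36 in clone 5, against 87.0, 84.1 and 71.2 CPM with DMSO. Its libraries overlapped, and the change of -0.16 ± 0.10 was within their spread (edgeR adjusted p = 0.44). In clone 4 BAG1 had 102.1, 101.1 and 97.1 CPM with HyT36, against 82.5, 102.2 and 99.9 CPM with DMSO, with a change of 0.08 ± 0.10 (edgeR adjusted p = 0.74). Replicate 1 of clone 4 with DMSO was the low one, and the other 5 lay together.

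BAG2, the inhibitor of CHIP, had 50.6, 48.9 and 50.1 CPM with HyT36 in clone 5, against 53.4, 49.5 and 51.5 CPM with DMSO (-0.04 ± 0.05, edgeR adjusted p = 0.72). In clone 4 it had 84.6, 78.3 and 81.6 CPM with HyT36, against 72.9, 76.1 and 83.7 CPM with DMSO (0.07 ± 0.05, adjusted p = 0.46). The libraries overlapped in both clones. BAG4, also called SODD and known to bind the tumour necrosis factor receptor TNFR1, ranged from 50.7 to 54.6 CPM with HyT36 and from 51.7 to 54.4 CPM with DMSO in clone 5 (-0.01 ± 0.05, adjusted p = 0.97). In clone 4 it ranged from 57.9 to 63.4 CPM with HyT36 and from 58.7 to 59.5 CPM with DMSO (0.05 ± 0.05, adjusted p = 0.62).

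**Figure D2:**
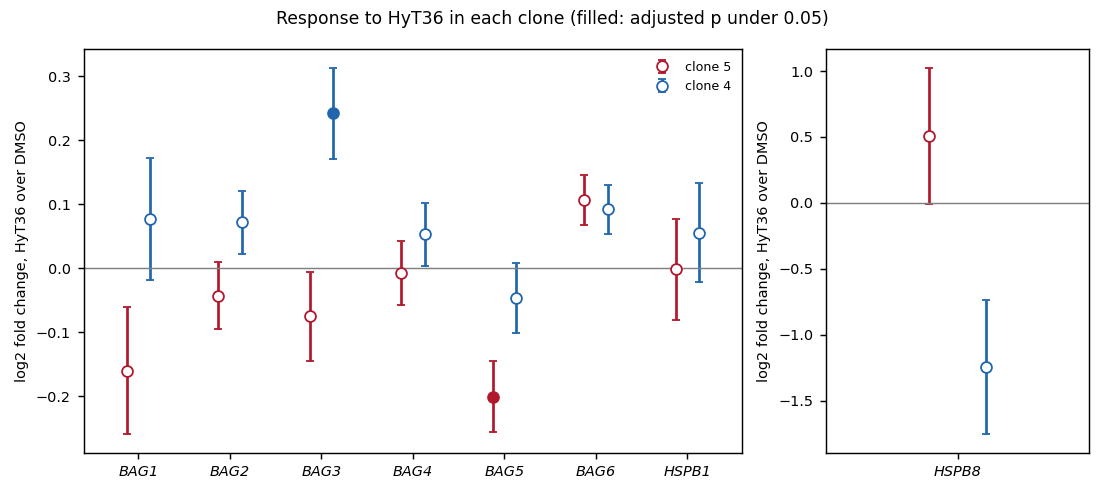
Response to HyT36 of the 8 members tested, as the log2 fold change of HyT36 over DMSO with bars of ± 1 SE from edgeR, clone 5 in red to the left of clone 4 in blue. Filled points passed an adjusted p of 0.05; HSPB8, with 4 to 19 reads in a library, is on an axis of its own. BAG3 in clone 4 at 0.24 and BAG5 in clone 5 at -0.20 are the filled points.

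HSPB1, also called HSP27, did not pass in either clone. Its window holds GAAGGTTC 182 to 175 bases before the start, and a link between motif and response was not tested. In clone 5 it had 369.5, 314.1 and 346.5 CPM with HyT36, against 327.8, 352.0 and 351.6 CPM with DMSO. In clone 4 it had 420.2, 470.8 and 469.5 CPM with HyT36, against 424.0, 477.9 and 406.9 CPM with DMSO. The libraries overlapped in both clones. The log2 changes were -0.00 ± 0.08 in clone 5 (edgeR adjusted p = 0.99) and 0.06 ± 0.08 in clone 4 (adjusted p = 0.77). Among the clone 4 libraries with many epithelial transcripts, 2 with HyT36 and 1 with DMSO, the change was 0.15 and passed (adjusted p = 0.034), and among those with few, 1 and 2, it was -0.08 (adjusted p = 0.73). RefSeq lists the pseudogenes HSPB1P1 and HSPB1P2, so reads that match several copies may have been dropped. How alike the copies are was not measured.

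HSPB8, the partner of BAG3, was near the limit of detection. In clone 5 it had 10, 7 and 10 reads with HyT36, against 7, 9 and 5 reads with DMSO. In clone 4 it had 4, 7 and 6 reads with HyT36, against 19, 12 and 6 reads with DMSO, so replicate 3 with DMSO lay within the range of the libraries with HyT36. The ratio of the summed reads after scaling was 1.43 in clone 5 (27 reads with HyT36 and 21 with DMSO, exact 95% interval of 0.781 to 2.67) and 0.416 in clone 4 (17 and 37 reads, 0.22 to 0.758). These intervals cover counting error only. The fitted changes, 0.51 ± 0.52 in clone 5 and -1.25 ± 0.51 in clone 4, did not pass (edgeR adjusted p = 0.65 and 0.16). The response of clone 5 minus that of clone 4 was 1.76 ± 0.73 (edgeR unadjusted p = 0.021, adjusted p = 0.51). HSPB8 overlaps HSPB8-AS1 on the annotation, and without a stated strand setting their reads cannot be told apart.

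CRYAB, or alpha B-crystallin, a chaperone of muscle and lens, had too few reads to be tested. It had 0, 2 and 2 reads with HyT36 and 1, 2 and 2 with DMSO in clone 5, and 3, 0 and 1 reads with HyT36 and 1, 3 and 1 with DMSO in clone 4. A difference was not detectable at this depth: the ratio of HyT36 to DMSO was 0.892 in clone 5 (exact 95% interval of 0.177 to 4.15) and 0.725 in clone 4 (0.144 to 3.37). Of 8 further small heat shock protein genes, HSPB2 and HSPB3 had 0 reads in all 12 libraries, CRYAA and ODF1 had 0 or 1 read, HSPB6 had 0 to 10, HSPB7 0 to 3 and HSPB9 1 to 9. HSPB11, which despite its name is known as a subunit of the ciliary transport machinery, was the only other one tested and changed by 0.05 in clone 5 and 0.09 in clone 4, neither past the test.

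No member passed the test of the difference between the clones' responses, with 0 of 8 by edgeR and limma-voom and 0 of 9 by DESeq2, and 0.302% of all genes tested passed by edgeR. By edgeR BAG3 and HSPB8 had an unadjusted p under 0.05. The median difference was -0.09 over the members and -0.01 over all genes tested.

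More members differed between the clones than changed with the ligand. With DMSO, clone 5 was higher than clone 4 in BAG3 and lower in BAG2, BAG4, BAG6 and HSPB1, 5 of 8 members against 55.5% of all genes tested (27.3% higher and 28.2% lower). With HyT36, clone 5 was again higher in BAG3 and was lower in BAG1, BAG2, BAG4, BAG5, BAG6 and HSPB1, 7 of 8 against 56.0% of all genes tested (27.0% higher and 28.9% lower). More than 1 gene in every 2 tested differed between the clones. Lower in clone 5 were 4 of 8 members with DMSO and 6 of 8 with HyT36, larger shares than over all genes tested. With either treatment 1 of 8 was higher. Whether this lean is particular to the members was not tested. The median difference over the members was -0.24 with DMSO and -0.22 with HyT36, beside 0.0017 and -0.0047 over all genes tested.

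BAG2 showed the largest difference of the members with either treatment among those that passed. It averaged 51.4 ± 1.96 CPM in clone 5 and 77.6 ± 5.55 CPM in clone 4 with DMSO (SD, n = 3 each), 1.51-fold lower in clone 5 (-0.59 ± 0.05, edgeR adjusted p = 3.2e-13). With HyT36 it averaged 49.9 ± 0.879 CPM in clone 5 and 81.5 ± 3.16 CPM in clone 4, 1.63-fold lower in clone 5 (-0.71 ± 0.05, adjusted p = 1.8e-15). Within each treatment the 3 clone 5 libraries lay below the 3 clone 4 libraries, as for 29.9% of genes tested with DMSO and 31.7% with HyT36. RAB23 overlaps BAG2 on the annotation, and its own clone differences were -0.04 with DMSO and 0.03 with HyT36, neither past the test. STUB1, the gene of CHIP, was lower in clone 5 as well, by -0.59 ± 0.10 with DMSO and -0.73 ± 0.10 with HyT36 on the log2 scale (edgeR adjusted p = 2.5e-04 and 4.1e-05); it was chosen after its values were seen.

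BAG3 was the member that was higher in clone 5. It averaged 34.3 ± 3.77 CPM in clone 5 and 23.9 ± 1.44 CPM in clone 4 with DMSO (SD, n = 3 each), a 1.44-fold difference (0.52 ± 0.07, edgeR adjusted p = 4.1e-08). With HyT36 it averaged 32.5 ± 1.69 CPM in clone 5 and 28.2 ± 0.514 CPM in clone 4, a 1.15-fold difference (0.20 ± 0.07, adjusted p = 0.012). In both treatments all clone 5 libraries lay above all clone 4 libraries, as for 29.8% of genes tested with DMSO and 30.5% with HyT36. The difference with HyT36 was not past the threshold without replicate 3 of clone 5 with HyT36 (adjusted p = 0.070), among the 4 libraries with few epithelial transcripts (0.12), or with the epithelial term (0.16).

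HSPB1 averaged 343.8 ± 13.9 CPM in clone 5 and 436.3 ± 37.1 CPM in clone 4 with DMSO (SD, n = 3 each), 1.27-fold lower in clone 5 (-0.34 ± 0.08, edgeR adjusted p = 0.0041). With HyT36 it averaged 343.3 ± 27.9 CPM in clone 5 and 453.5 ± 28.8 CPM in clone 4, 1.32-fold lower (-0.40 ± 0.08, adjusted p = 0.0016). BAG6 averaged 284.4 ± 9.19 CPM in clone 5 and 334.9 ± 17.3 CPM in clone 4 with DMSO (-0.24 ± 0.04, adjusted p = 1.8e-06). With HyT36 BAG6 averaged 306.3 ± 8.7 CPM in clone 5 and 357.0 ± 6.15 CPM in clone 4 (-0.22 ± 0.04, adjusted p = 5.3e-06). The libraries of the clones did not overlap in any of these comparisons, as 59.8% of genes tested did not with DMSO and 62.1% with HyT36.

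BAG1, BAG4 and BAG5 differed less evenly. BAG4 was lower in clone 5 by -0.16 ± 0.05 with DMSO and -0.22 ± 0.05 with HyT36 on the log2 scale (edgeR adjusted p = 0.0067 and 2.6e-04). With DMSO the difference of BAG4 was not past the threshold among the 4 libraries with many epithelial transcripts (-0.15, adjusted p = 0.053) or with the epithelial term (-0.13, adjusted p = 0.071), with a size near that over all libraries. BAG1 averaged 80.8 ± 8.44 CPM in clone 5 and 94.8 ± 10.7 CPM in clone 4 with DMSO and did not pass (-0.23 ± 0.10, adjusted p = 0.068). Without replicate 1 of clone 4 with DMSO, its low library and the one of that group with many epithelial transcripts, BAG1 passed (adjusted p = 1.4e-04), and it also passed without replicate 1 of clone 5 with DMSO (0.033), with DESeq2 (0.0034) and with no low-count filter (3.3e-05). Among libraries with many epithelial transcripts the difference of BAG1 with DMSO was -0.03 (adjusted p = 0.84), and with the epithelial term it was -0.12 (0.31). With HyT36 BAG1 averaged 72.2 ± 4.71 CPM in clone 5 and 100.1 ± 2.67 CPM in clone 4, 1.39-fold lower in clone 5 (-0.47 ± 0.10, adjusted p = 0.0026). BAG5 differed by 0.01 with DMSO (adjusted p = 0.91) and by -0.15 ± 0.05 with HyT36 (adjusted p = 0.022). The call of BAG5 with HyT36 was lost without replicate 1 of clone 4 (0.18) and without replicate 1 or 3 of clone 5 (0.16 and 0.051). HSPB8 did not pass in either treatment, with -0.91 ± 0.49 with DMSO and 0.85 ± 0.53 with HyT36. Without replicate 3 of clone 4 with DMSO its difference with DMSO passed (-1.23, adjusted p = 0.047), as it did among libraries with many epithelial transcripts (-1.57, adjusted p = 0.034). With the epithelial term it passed in both treatments (-1.51 with DMSO and 1.59 with HyT36).

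**Figure D3:**
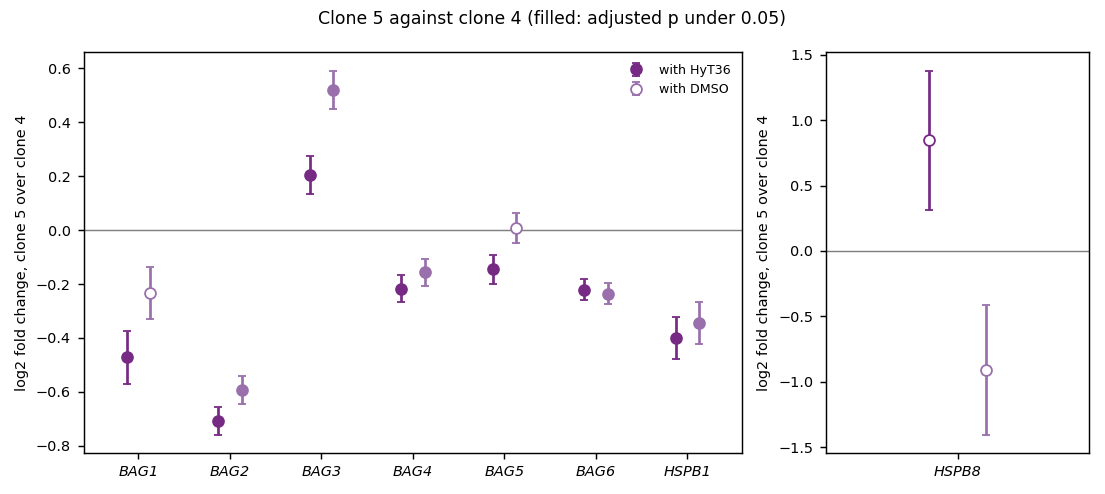
Difference of clone 5 from clone 4 for the 8 members tested, as the log2 fold change of clone 5 over clone 4 with bars of ± 1 SE from edgeR, with HyT36 to the left of DMSO for each gene. Filled points passed an adjusted p of 0.05. BAG3 lies above 0 in both treatments at 0.20 and 0.52, and BAG2 lies lowest among the members that passed at -0.71 and -0.59.

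Across the 4 groups, the order of the mean levels from high to low was clone 4 with HyT36, clone 4 with DMSO, clone 5 with DMSO and clone 5 with HyT36 for BAG1, BAG2, BAG4 and HSPB1. In all 4 genes the neighbours within a clone overlapped, and in BAG1 the clones with DMSO overlapped too. For BAG3 both clone 5 groups stood first, DMSO ahead of HyT36 with overlapping libraries, and then came clone 4 with HyT36 and last clone 4 with DMSO. For BAG6 it was clone 4 with HyT36, clone 4 with DMSO, clone 5 with HyT36 and clone 5 with DMSO, and the 2 clone 4 groups overlapped. For BAG5 clone 5 with DMSO, clone 4 with DMSO and clone 4 with HyT36 overlapped, and clone 5 with HyT36 lay below the others. For HSPB8 clone 4 with DMSO was highest and clone 4 with HyT36 lowest, and each group overlapped with its neighbours.

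The profile over the 12 libraries was compared with that of 11674 genes by Pearson's r of log2 CPM, as a description in which the libraries share the difference between the clones. The members with the closest neighbours were BAG2, with MORF4L1 at 0.994, NQO1 at 0.990 and PALLD at 0.989, BAG6, with ATF4 at 0.984, FASN at 0.980 and USP5 at 0.978, and HSPB1, with RHOT2 at 0.984, HSPBP1 at 0.979 and B4GALNT1 at 0.977.

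A further list held the HSP70 chaperones, on which the BAG proteins act, and other exchange factors of HSP70. Of its 10 genes tested, 3 rose in clone 5 and 4 in clone 4, and none fell. Over all genes tested 3.35% were higher in clone 5 and 2.21% in clone 4. HSPA8, the constitutive HSP70, averaged 2460 CPM with HyT36 and 1927 CPM with DMSO in clone 5 (0.35 ± 0.03, edgeR adjusted p = 3.0e-09), and 2935 CPM with HyT36 and 2303 CPM with DMSO in clone 4 (0.35 ± 0.03, adjusted p = 1.6e-09). The inducible HSP70 genes HSPA1A and HSPA1B rose by 0.37 ± 0.06 and 0.52 ± 0.06 in clone 5 and by 0.64 ± 0.05 and 0.81 ± 0.06 in clone 4. Their sequences are near-identical, so reads that match both genes may have been left out with the multimapping reads. The further rise in clone 4 was that of HSPH1, an HSP110 exchange factor, at 0.12 ± 0.04 (adjusted p = 0.038), named after its values were seen. The median log2 change of this list was 0.08 in clone 5 and 0.23 in clone 4, beside -0.0045 and 0.0027 over all genes tested. The clones share no libraries, and the difference of their responses did not pass for any of the 10 genes by edgeR, with HSPA1A and HSPA1B at unadjusted p = 0.0013 and 0.0017.

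Of 29 HSF1 targets that are not members, 7 rose and 1 fell in clone 5, and 10 rose and none fell in clone 4. Over all genes tested 3.35% rose and 4.83% fell in clone 5, and 2.21% rose and 3.36% fell in clone 4. The members BAG3 and HSPB1 gave 1 rise, that of BAG3 in clone 4. The fall among the 29, in clone 5, was that of RANGAP1, the activator of the Ran GTPase, by 0.13 ± 0.04 (adjusted p = 0.016), named after its values were seen. This list shares HSPA8, HSPA1A, HSPA1B, HSPH1, HSPA4 and HSPA4L with the HSP70 list. DNAJB1, an HSP40 that drives the HSP70 cycle, averaged 124.0 CPM with HyT36 and 100.7 CPM with DMSO in clone 5 (0.30 ± 0.04, edgeR adjusted p = 5.9e-06). In clone 4 DNAJB1 averaged 171.0 CPM with HyT36 and 101.1 CPM with DMSO (0.76 ± 0.04, adjusted p = 1.2e-16). DNAJB4, another HSP40, rose by 0.49 ± 0.07 in both clones (adjusted p = 2.0e-06 in clone 5 and 1.8e-06 in clone 4). DNAJB1 and DEDD2 passed the test of the difference between the responses. Of the heat shock factors HSF1, HSF2 and HSF4 and the factor-binding genes HSF2BP and HSBP1, none changed with HyT36 in either clone by edgeR. The change of HSF1 in clone 4 was 0.13 ± 0.05 (edgeR unadjusted p = 0.017, adjusted p = 0.15), and no other of them had an unadjusted p under 0.05.

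**Figure D4:**
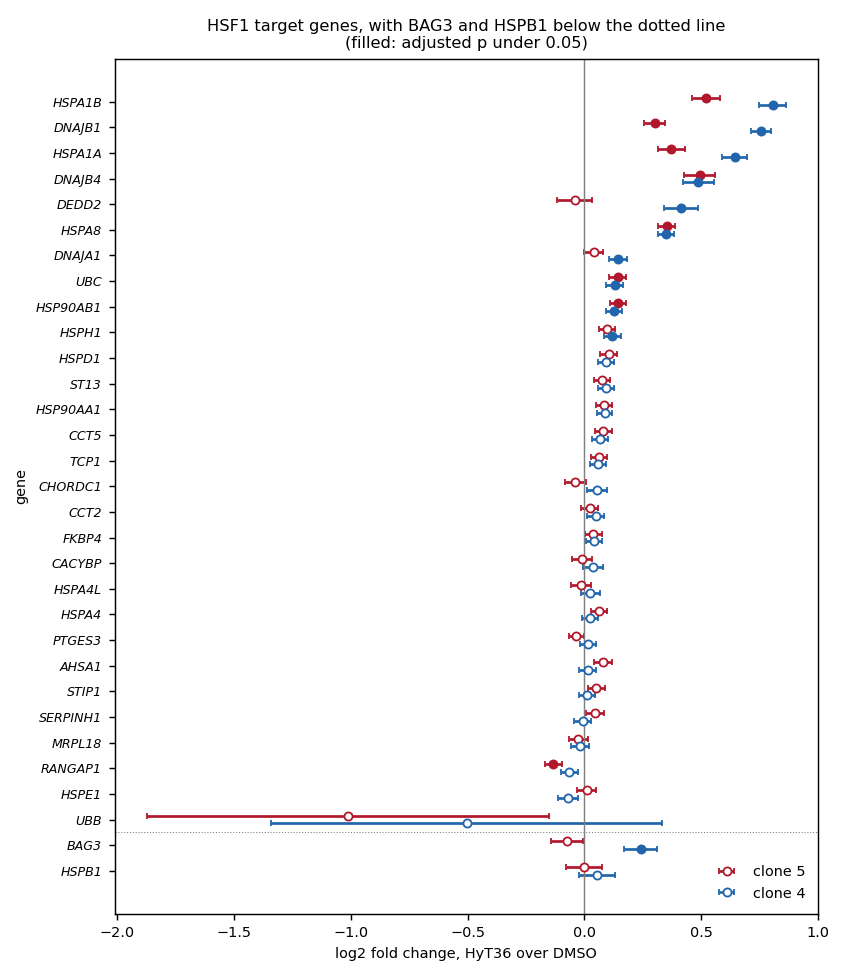
Response to HyT36 of the HSF1 targets tested, members and others, as the log2 fold change of HyT36 over DMSO with bars of ± 1 SE from edgeR, for clone 5 in red above clone 4 in blue, filled where the adjusted p was under 0.05. BAG3 and HSPB1 lie at -0.08 and -0.00 in clone 5 and at 0.24 and 0.06 in clone 4, while HSPA1B lies at 0.52 in clone 5 and 0.81 in clone 4.

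Among 10 genes of the BAG6 complex and of tail-anchored protein insertion, 1 rose and 2 fell in clone 5, and 1 fell in clone 4. Beside them, 3.35% of all genes tested rose and 4.83% fell in clone 5, and 2.21% rose and 3.36% fell in clone 4. UBL4A, a subunit of the complex with BAG6, averaged 151.9 CPM with HyT36 and 186.7 CPM with DMSO in clone 5 (-0.30 ± 0.04, edgeR adjusted p = 1.9e-06), and 107.3 CPM with HyT36 and 122.9 CPM with DMSO in clone 4 (-0.20 ± 0.04, adjusted p = 0.0019). In clone 5 SGTA, the co-chaperone that hands clients to this complex, fell by 0.14 ± 0.04 (adjusted p = 0.014), and CAMLG, a receptor subunit for tail-anchored proteins in the endoplasmic reticulum, rose by 0.21 ± 0.06 (adjusted p = 0.014). With DMSO 3 of the 10 were higher and 1 lower in clone 5 than in clone 4, and with HyT36 3 were higher and 3 lower, against 55.5% and 56.0% of all genes tested that differed in either direction.

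Among 14 partners of BAG3 in chaperone-assisted autophagy, 1 rose and 3 fell in clone 5, and 2 fell in clone 4. The ligand shares over all genes tested were 3.35% higher and 4.83% lower in clone 5, and 2.21% and 3.36% in clone 4. LATS2, a Hippo pathway kinase known to bind BAG3, averaged 31.1 CPM with HyT36 and 38.7 CPM with DMSO in clone 5 (-0.32 ± 0.06, edgeR adjusted p = 2.9e-04), and 34.6 CPM with HyT36 and 44.5 CPM with DMSO in clone 4 (-0.36 ± 0.06, adjusted p = 2.9e-05). VPS18, a subunit of the vesicle tethering complexes, fell by 0.18 ± 0.05 in clone 5 (adjusted p = 0.023) and by 0.21 ± 0.05 in clone 4 (adjusted p = 0.0067). STX7, an endosomal SNARE, rose by 0.15 ± 0.05 in clone 5 (adjusted p = 0.041), and the third fall there, of the HSP40 DNAJB6 by 0.13 ± 0.04, was named after its values were seen (adjusted p = 0.048). Between the clones, 3 of the 14 were higher and 7 lower in clone 5 with DMSO, and 4 higher and 7 lower with HyT36. Over all genes tested 27.3% were higher and 28.2% lower with DMSO, and 27.0% and 28.9% with HyT36. Of 10 other named partners, 1 fell in clone 5 and 1 rose in clone 4, beside the same ligand shares over all genes tested. STK38, a kinase, fell by 0.21 ± 0.07 in clone 5 (edgeR adjusted p = 0.041). PINK1, the mitochondrial kinase of mitophagy, rose by 0.42 ± 0.12 in clone 4, with 7.84 CPM with HyT36 and 5.83 CPM with DMSO (edgeR adjusted p = 0.037).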

How the data were processed

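RNA of 12 bulk HEK293 libraries was measured. Per the labels' protocols, frozen pellets were polyA-selected and made into libraries with a NEBNext Ultra II kit by a sequencing service. The authors deposited a table of raw counts that lists 36601 genes, 22344 guide features and 4 summary entries, per its file headers. The submitters' processing notes name GRCh38 and Cell Ranger 7, without a role for these libraries. The aligner, annotation and strand setting are absent from the sources used here, so reads of overlapping or antisense genes cannot be told apart. Genes held 82.4 to 83.9% of the deposited counts, and guide features and summary entries (ambiguous reads 6.75 to 7.15%, unmapped reads 3.18 to 4.26%, reads without a feature 2.95 to 4.18%, multimapping reads 2.23 to 2.82%) were left out. Gene IDs were matched to symbols for 36366 genes, and 14 symbols held as numbers in the table were resolved by ID.

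Counts were tested with edgeR 4.0.16 in R 4.3.3 (quasi-likelihood F-test, robust; TMM; filterByExpr by group, leaving 14892 genes), in 1 model with 4 group means over all 12 libraries. Fitted log2 changes used a prior count of 0.125. The SE is approximate, the absolute log2 change over the root of F. Calls had a Benjamini-Hochberg adjusted p under 0.05 over all genes. Alternatives were DESeq2 1.42.0, limma 3.58.1 (voom), RLE scaling, no or a stricter low-count filter (1 CPM in 3 libraries), only the groups compared, a replicate block, libraries split by or a term for epithelial transcripts, and leaving out each library. The fitting script was tested on simulated data. Replicate pairs differed by more than sampling noise (chi-square per degree of freedom of 1.904 to 8.151). The highest values, 8.151 and 7.006, were both of pairs with replicate 1 of clone 4 with DMSO, and no other pair was above 4.517. No source says that replicates are separate cultures, so p-values measure the spread between these libraries, which may be technical. Intervals for summed reads are exact 95% intervals for a ratio of counts.

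The members and lists were chosen with earlier results of these data known. Named were all members, up to 3 genes with the smallest p among those past the threshold in each list and ligand response, and the 3 genes most like each of the 3 members with the highest correlation, among genes with a mean log2 CPM (prior count 2) of at least 1. A blood cell list of 7 genes summed to 0.5 to 1.86 CPM, a fibroblast list of 7 to 5.63 to 9.65 CPM and 8 mitochondrially encoded transcripts to 16180 to 19880 CPM over the 12 libraries.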

Additional observations from a re-analysis of the deposited data

Results flagged for a closer look

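A pair of HSF1 target genes outside the family responded to HyT36 differently in the clones, by the interaction term of edgeR's quasi-likelihood test over 14892 genes. DNAJB1 rose in both clones, and its response in clone 5 minus that in clone 4 was -0.46 ± 0.06 on the log2 scale (adjusted p = 2.0e-05), or -0.4577 before rounding. DEDD2 had 22.8 CPM with HyT36 and 23.5 CPM with DMSO in clone 5 (-0.04 ± 0.07, not past the test) and rose by 0.41 ± 0.07 in clone 4, with 31.0 CPM with HyT36 and 23.3 CPM with DMSO. Its difference was -0.46 ± 0.10 (adjusted p = 0.030), or -0.4553 before rounding. DEDD2 was named after its values were seen.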

How the results depend on the processing

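Of the 5 comparisons over members, the number called in clone 4 with HyT36 against DMSO (1, BAG3) was 0 among libraries with few epithelial transcripts, 3 among those with many (BAG3, BAG6, HSPB1) and 2 with an epithelial term (BAG3 and HSPB8), and 0 to 2 when each library was left out. BAG3 there passed in 17 of 22 alternatives, from 0.19 to 0.33. These include leaving out each clone 5 library, which enters only through the shared spread and scaling, so those fits test the call little. The call was lost without replicate 1 of clone 4 with DMSO and without replicate 1, 2 or 3 of clone 4 with HyT36. In clone 5 the number (1, BAG5) was 2 with DESeq2, with no low-count filter and with only the groups compared (BAG6 added), 0 with the epithelial term, and 0 to 2 when each library was left out. BAG5 there passed in 17 of 20, from -0.24 to -0.15, which likewise include leaving out each clone 4 library. Its call was also lost without replicate 3 of clone 5 with DMSO and without replicate 1 of clone 5 with HyT36. The clone difference called 5 to 6 members with DMSO and 5 to 7 with HyT36 over the libraries left out, and the difference of responses called 0 members under each of its alternatives. Over all genes, the difference of responses called 45 genes, 169 with no filter, 244 with the epithelial term and 25 to 140 over the libraries left out. The ligand called 830 genes in clone 4, 287 among libraries with few epithelial transcripts and 409 to 851 over the libraries left out. In clone 5 it called 1219, 776 with the epithelial term and 755 to 1618 over the libraries left out. The clone differences gave 7556 to 8340 genes with DMSO and 7649 to 8792 with HyT36 over the libraries left out. The cause of these shifts was not tested.

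Values near 0 that had not passed changed sign under some settings. In clone 5 BAG4 was 0.0042 with DESeq2, 0.0038 with RLE scaling, 0.0080 with no filter and 0.0003 with only the groups compared, and HSPB1 was 0.0092, 0.0087, 0.0130 and 0.0052 in the same settings, 0.0010 with the stricter filter and 0.0487 with the epithelial term. In clone 4 BAG5 was 0.0759 and HSPB1 -0.0751 among libraries with few epithelial transcripts. The DMSO clone difference of BAG5 was -0.0012 with DESeq2 and -0.0389 among libraries with many. With the epithelial term the difference of responses was -0.0327 for BAG6 and 0.0115 for HSPB1. Over the libraries left out, the sign also changed for BAG1 in clone 4 (-0.0127 to 0.1386), BAG3 (-0.1383 to 0.0168), BAG4 (-0.0327 to 0.0271) and HSPB1 (-0.0513 to 0.0586) in clone 5, the DMSO clone difference of BAG5 (-0.0409 to 0.0393), and the difference of responses of BAG6 (-0.0213 to 0.0491) and HSPB1 (-0.1253 to 0.0019).

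Libraries of the same replicate number did not deviate together (r of -0.54 to 0.16 between groups, against pairs of other numbers up to 0.42). No pairing by number was seen, but deviations from means of 3 libraries cannot exclude it. With a replicate block the ligand called 1 member and 1083 genes in clone 5 and 1 member and 715 genes in clone 4, the difference of responses 0 and 43, and the clone difference 7 and 8153 with HyT36 and 5 and 8093 with DMSO. BAG5 in clone 5 had an adjusted p of 0.024 and BAG3 in clone 4 one of 0.044, and no member's call changed. The fits on libraries with few or many epithelial transcripts leave 1 clone 4 library in an arm, assumed to vary like the other groups, and give no value for clone 5 with HyT36 against DMSO, for the difference of responses, or for 1 clone difference each. A fit on only the groups compared was not applicable to the difference of responses. The epithelial term is estimated from the clone 4 libraries alone, as each clone 5 group had only many or only few of these transcripts. Its values for clone 5 therefore carry over the clone 4 estimate. HSPB8 and CRYAB are limited by depth.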
